A study of Homo sapiens with 4 samples.

Results

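The 49 genes described here make up a module of interferon-stimulated genes together with the cGAS-STING pathway that can start them. They were taken from the table by gene symbol, from a list drawn up with earlier results of these data known, and all 49 were found among the 58735 genes of the count table, RIGI under its present name. RNA was sequenced from 2 human cell lines of triple-negative breast cancer (TNBC), SUM159 and MDA-MB-231, after 72 h with 1 μM mebendazole (MBZ), a tubulin-binding anthelmintic, or with DMSO, its vehicle. Each line and treatment gave 1 library, so 4 libraries carry every value below, and no spread between cultures could be measured. MDA-MB-231 cells were kept in DMEM and SUM159 cells in Ham's F12 with insulin and hydrocortisone, so the line and its medium cannot be told apart. The libraries held between 17143139 and 24897586 counts, and a floor of 3 counts stood at 0.132 to 0.178 CPM (counts scaled to library size with TMM factors, as all CPM below). The progesterone receptor gene PGR had 0 counts in all 4 libraries and ESR1 had 0 to 18 counts, while ERBB2 had 1216 to 1996 counts and the mesenchymal marker VIM 20703 to 54409.

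Cells sense DNA that is out of place in the cytosol through cGAS, the product of CGAS, which makes a cyclic dinucleotide that activates the membrane adaptor STING. RNA with viral features is sensed by RIG-I and MDA5, the products of RIGI and IFIH1. Both routes switch on interferon genes, and the interferons act through receptors, Janus kinases and a complex with STAT2 and IRF9 that binds the interferon-stimulated response element (ISRE). The genes under this element encode antiviral proteins, several of which also have raised levels in tumour cells with chronic interferon signalling.

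The ISRE is the sequence that these genes are known to share, so it was searched in the promoter windows that RefSeq (GRCh38.p14) gives, from 250 bases before to 50 bases after the transcription start. A window was given for 37 of the 49 genes. The ISRE core, GAAA and GAAA with any 2 bases between them, stood on either strand in 25 of the 37 genes (67.6%), against 4.38% of all 27305 genes with a window. The core of the gamma-activated site (GAS), TTCNNNGAA, stood in 13 of 37 (35.1%), against 9.38% of all genes, and overlapped an ISRE core in 5 of them. Stretches of 6 windows are shown because their genes span the responses described below, from past 2-fold upward in MDA-MB-231 but not SUM159 (HERC5, IFIT1, ISG15), through past 2-fold in opposite directions (IFIH1, IFIT3), to past 2-fold downward in SUM159 (IFITM3). They run 5′ to 3′ on the strand of the gene, and capitals mark matches to the ISRE core, which reads TTTC, any 2 bases, TTTC where it lies on the other strand.
ISG15, chr1:1013354-1013429, plus strand: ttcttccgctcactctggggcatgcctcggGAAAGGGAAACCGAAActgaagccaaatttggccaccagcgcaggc
HERC5, chr4:88456964-88457084, plus strand: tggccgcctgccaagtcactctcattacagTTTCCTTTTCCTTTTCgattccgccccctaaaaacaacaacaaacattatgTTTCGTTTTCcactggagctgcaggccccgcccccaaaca
IFIT1, chr10:89392477-89392545, plus strand: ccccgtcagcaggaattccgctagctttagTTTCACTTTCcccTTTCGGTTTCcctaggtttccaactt
IFIT3, chr10:89327811-89327914, plus strand: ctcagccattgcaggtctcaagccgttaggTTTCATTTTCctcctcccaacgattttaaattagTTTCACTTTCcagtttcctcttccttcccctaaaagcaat
IFIH1, chr2:162318685-162318873, minus strand: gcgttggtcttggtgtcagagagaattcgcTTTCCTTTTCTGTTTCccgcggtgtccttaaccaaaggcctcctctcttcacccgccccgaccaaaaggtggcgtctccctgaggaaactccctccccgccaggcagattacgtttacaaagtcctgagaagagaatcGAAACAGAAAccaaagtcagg
IFITM3, chr11:320861-320942, minus strand: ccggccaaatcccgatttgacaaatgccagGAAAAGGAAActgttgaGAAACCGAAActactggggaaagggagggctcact
IFIH1 and HERC5 each held 3 matches in the whole window, the other 4 genes 2 each. A match describes the letters of the window and not a bound site.

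In MDA-MB-231 cells, the interferon-stimulated genes were mostly higher in the MBZ library. Of the 49, 44 averaged 10 or more counts in the 2 libraries of the line and were compared. By a fold change of 2, 18 of the 44 (40.9%) were higher, against 9.05% of all 15142 genes compared. They were the RNA sensor genes RIGI and IFIH1, IFIT1, IFIT2, IFIT3, OASL, ISG15, USP18, HERC5, HERC6, IFI44, IFI44L, RSAD2, ISG20, DDX60, SAMD9, SAMD9L and CCL5. Only IFITM1 and IFITM2 were at least 2-fold lower, which is 2 of 44 against 5.14% of all genes. The median log2 fold change (MBZ over DMSO) of the 44 genes was 0.66, and that of all genes compared was -0.018. Of the 44, 33 lay above 0 and 11 below.

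In SUM159 cells the same module was mostly lower in the MBZ library. Of the 46 genes compared, 18 (39.1%) were at least 2-fold lower, against 10.7% of all 15674 genes. These were STING1, RIGI, IFIH1, STAT2, IFIT3, OAS2, OASL, IFITM1, IFITM2, IFITM3, HERC6, IFI44L, RSAD2, TRIM22, PARP14, EPSTI1, GBP2 and CCL5. USP18 alone was at least 2-fold higher, 1 of 46 against 12.7% of all genes. The median of the 46 genes was -0.76 and that of all genes -0.034, and 38 of the 46 lay below 0. Scaling by total counts moved the median of all genes up by 0.27 in MDA-MB-231 and by 0.30 in SUM159. With it the counts became 21 higher and 1 lower in MDA-MB-231 and 3 higher and 11 lower in SUM159. Shares of all genes past 2-fold in each line are not given for scaling by total counts. The calls this scaling ended were IFITM1 (-0.83) in MDA-MB-231 and, in SUM159, RIGI (-0.79), IFIH1 (-0.86), IFIT3 (-0.82), OAS2 (-0.71), HERC6 (-0.80), RSAD2 (-0.75) and PARP14 (-0.76). Those it added, all upward, were MX1 (1.19), MX2 (1.18) and EPSTI1 (1.09) in MDA-MB-231 and IRF7 (1.24) and OAS3 (1.07) in SUM159. In bulk RNA, fewer cells with a transcript and less of it per cell cannot be told apart. No p-value can be had within a line without assuming the spread between cultures, and the intervals below are 95% Clopper-Pearson intervals that cover counting error only.

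**Figure D1:**
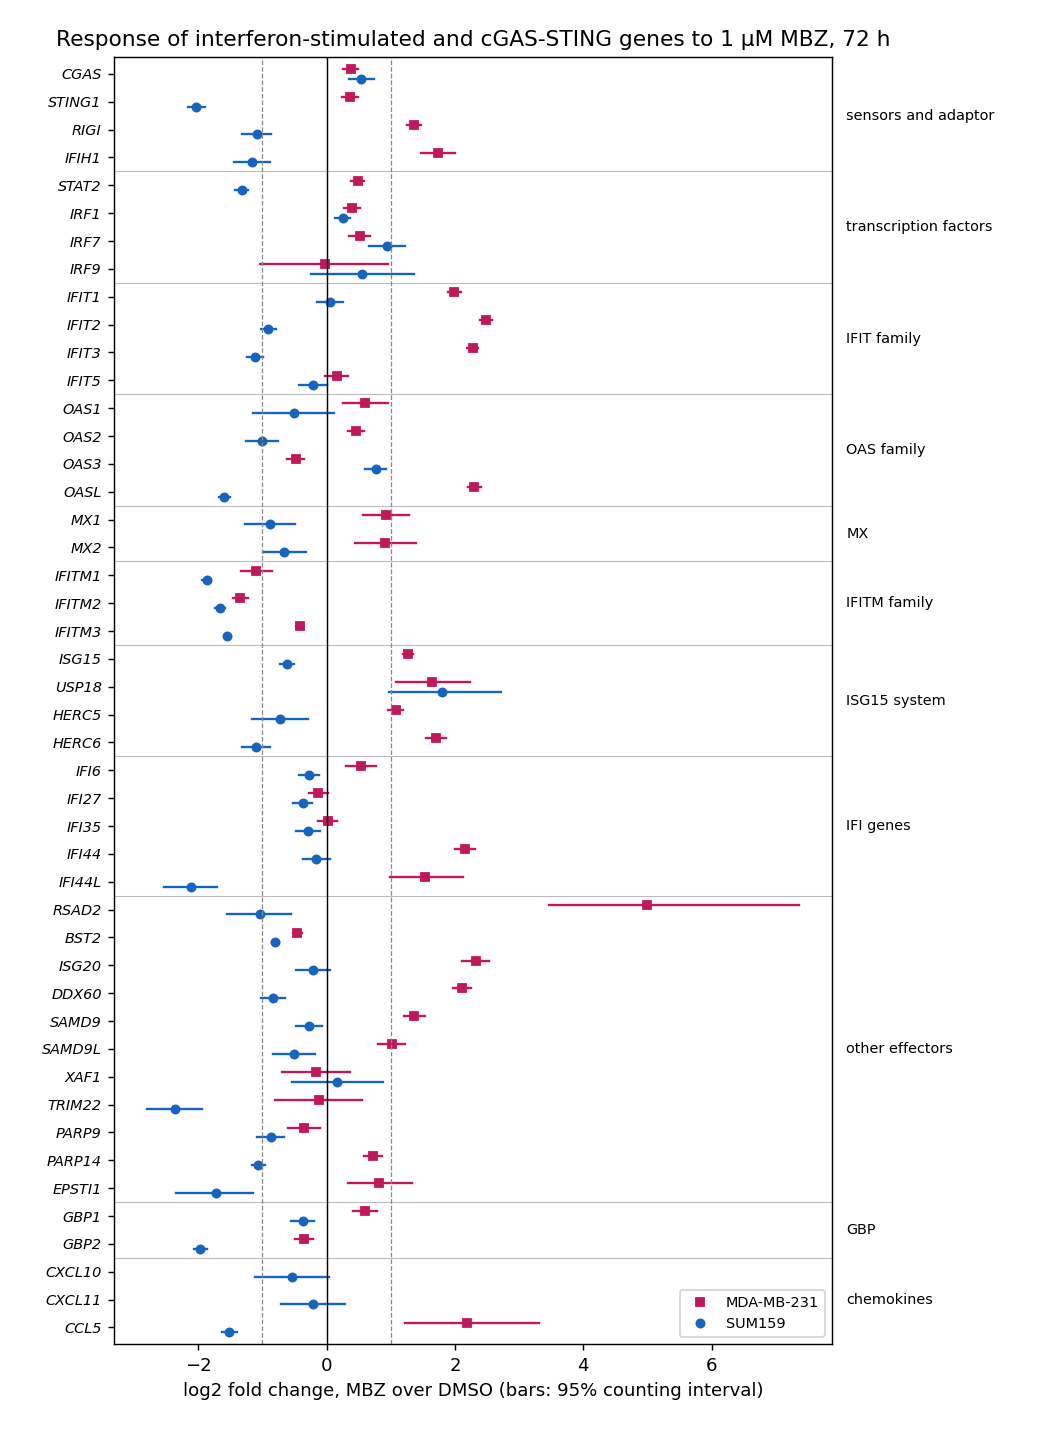
Log2 fold change (MBZ over DMSO, x axis) of each interferon-stimulated or cGAS-STING gene that averaged 10 or more counts in the line, in MDA-MB-231 (red squares) and SUM159 (blue circles), grouped by role; bars are 95% counting intervals and dashed lines mark a 2-fold change. The red squares reach 5.0 (RSAD2) on the right and the blue circles -2.36 (TRIM22) on the left, and the IFITM genes lie below 0 in both lines.

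The sensors stand first in the pathway. The genes of the RNA sensors split by line, and that of the DNA sensor did not. RIGI, which encodes the RNA sensor RIG-I (GRCh38 chr9:32455302-32526208), stood at 45.4 CPM in the DMSO library and 117 CPM in the MBZ library of MDA-MB-231, and at 26.0 and 12.2 CPM in those of SUM159. Its log2 fold change was 1.36 (1.25 to 1.47) in MDA-MB-231 and -1.09 (-1.32 to -0.86) in SUM159. IFIH1, the gene of MDA5 (chr2:162267074-162318684), had 7.49 and 24.9 CPM in MDA-MB-231 and 17.6 and 7.86 CPM in SUM159, with changes of 1.73 (1.48 to 2.0) and -1.16 (-1.44 to -0.88). Both RNA sensor genes were thus higher with MBZ in one line and lower in the other.

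CGAS, the DNA sensor gene, stood at 47.4 and 61.3 CPM in MDA-MB-231 and at 19.9 and 28.8 CPM in SUM159, above DMSO in both lines but by less than 2-fold, with changes of 0.37 (0.25 to 0.49) and 0.54 (0.34 to 0.73). STING1, the gene of the adaptor STING (chr5:139475533-139482935), had 44.9 and 58.1 CPM in MDA-MB-231, a change of 0.37 (0.25 to 0.50), short of 2-fold. In SUM159 it went from 113 CPM in the DMSO library, its highest level, to 27.7 CPM in the MBZ library, its lowest, a change of -2.03 (-2.17 to -1.90). The sensor and its adaptor therefore lay on opposite sides of 0 in SUM159 and on the same side in MDA-MB-231.

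The interferon genes themselves were at or near the floor. IFNB1, which encodes interferon beta, had 0 counts in each library, and so did every other gene of 21 interferon ligand genes except IFNL1, a lambda interferon gene. IFNL1 had 0 counts in the DMSO library and 4 in the MBZ library of MDA-MB-231. With the floor of 3 counts in place of the 0 the ratio is 1.61, which leaves out the counting error of the 4. In SUM159 IFNL1 had 1 and 14 counts, a ratio of 11.2 with a counting interval of 1.71 to 475. A count of 0 allows up to 0.132 to 0.178 CPM in these libraries, so lower levels of interferon transcripts were not detectable at this depth.

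Among the transcription factors, STAT2 passed 2-fold, in SUM159, and IRF7 did so there only with scaling by total counts. STAT2, a subunit of the complex that binds the ISRE, stood at 73.0 and 102 CPM in MDA-MB-231, a change of 0.48 (0.39 to 0.58), and at 138 and 55.1 CPM in SUM159, a change of -1.32 (-1.43 to -1.22). IRF7, which drives interferon alpha genes, was above DMSO in both lines, with changes of 0.51 (0.35 to 0.68) and 0.93 (0.65 to 1.22). IRF1 also lay above 0 in both, at 0.40 (0.26 to 0.53) and 0.25 (0.13 to 0.37). IRF9, the DNA-binding subunit of the ISRE complex, had only 17 to 40 counts in a library and intervals that spanned 0 in both lines. Of its annotated exon bases 23.9% overlap another gene, where reads can be lost to counting in union mode.

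The signalling genes IRF3, TBK1 and MAVS, which are not among the 49, stayed within 2-fold. In MDA-MB-231 and SUM159, IRF3 had changes of 0.33 and -0.13, TBK1 of 0.52 and 0.04, and MAVS of -0.37 and -0.56. The interferon receptor gene IFNAR1 had changes of 0.19 (0.08 to 0.31) and -0.64 (-0.75 to -0.53). IFNAR2 had 9 to 28 counts, and 27.7% of its exon bases overlap another gene.

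The IFIT genes, whose proteins bind foreign RNA, were among the genes with the highest changes in MDA-MB-231. They lie side by side on chr10:89283694-89421605. IFIT2 stood at 50.7 CPM in the DMSO library and 284 CPM in the MBZ library of MDA-MB-231, a change of 2.48 (2.39 to 2.58), and at 86.9 and 46.3 CPM in SUM159, a change of -0.91 (-1.03 to -0.79). IFIT3 had 66.7 and 323 CPM, a change of 2.28 (2.19 to 2.36), and in SUM159 82.4 and 38.0 CPM, a change of -1.12 (-1.24 to -0.99). IFIT1, with 45.8 and 182 CPM, had a change of 1.99 (1.89 to 2.09) in MDA-MB-231. In SUM159 it stood at 20.6 and 21.4 CPM, a change of 0.05 (-0.15 to 0.26). IFIT5, the last of the row, did not pass 2-fold in either line, at 0.16 (-0.02 to 0.33) and -0.22 (-0.44 to 0.00), and its sign in SUM159 turned when libraries were scaled by total counts. The neighbours in this cluster thus differed in response, with IFIT5 within 2-fold in MDA-MB-231 beside 3 genes past it.

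The OAS genes encode synthetases of oligoadenylate, a messenger that starts RNA decay, and OASL a relative without that activity. OASL (chr12:121017763-121039246) stood at 38.6 and 191 CPM in MDA-MB-231 and at 217 and 71.9 CPM in SUM159. Its changes were 2.30 (2.20 to 2.41) and -1.59 (-1.68 to -1.51). OAS2 passed 2-fold only downward in SUM159, with 21.7 and 10.8 CPM and a change of -1.01 (-1.25 to -0.76), a fold of 2.01 at the edge of the threshold. OAS3 was below DMSO in MDA-MB-231 and above it in SUM159, at 54.0 and 38.6 CPM in MDA-MB-231 and 25.8 and 43.8 CPM in SUM159, with changes of -0.48 (-0.62 to -0.35) and 0.76 (0.60 to 0.93). OAS1, at 2.0 to 8.09 CPM, and the dynamin-like GTPase genes MX1 and MX2, at 2.82 to 9.85 CPM, were above DMSO in MDA-MB-231 and below it in SUM159. None of the 3 passed 2-fold, which MX1 and MX2 did in MDA-MB-231 with scaling by total counts, and the SUM159 interval of OAS1 spanned 0 (-1.14 to 0.12). MX1 had changes of 0.93 (0.57 to 1.29) and -0.88 (-1.27 to -0.49).

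The IFITM genes, whose membrane proteins block viral entry, were lower with MBZ in both lines under each scaling tried. They lie within chr11:303655-329475. IFITM1 stood at 22.5 and 10.5 CPM in MDA-MB-231 and at 355 and 97.1 CPM in SUM159, with changes of -1.10 (-1.34 to -0.86) and -1.87 (-1.94 to -1.80). IFITM2 had 106 and 41.8 CPM in MDA-MB-231 and 273 and 86.0 CPM in SUM159, with changes of -1.35 (-1.47 to -1.23) and -1.66 (-1.74 to -1.59). IFITM3, the most abundant of the 3, had 394 and 294 CPM and 1327 and 454 CPM, with changes of -0.42 (-0.47 to -0.37) and -1.55 (-1.58 to -1.51). IFITM1 and IFITM2 were the only genes of the module at least 2-fold lower in MDA-MB-231, and with scaling by total counts IFITM2 alone was. The coding sequences of the IFITM genes are alike, so how reads were shared between them is uncertain. All 3 also share exon bases with another gene, from 0.2% in IFITM2 to 16.3% in IFITM3.

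ISG15 encodes a ubiquitin-like protein, HERC5 the main ligase that attaches it, HERC6 a related ligase, and USP18 the protease that removes it. All 4 were at least 2-fold higher in the MBZ library of MDA-MB-231. ISG15 stood at 105 and 252 CPM there, a change of 1.27 (1.2 to 1.34), and at 91.4 and 59.3 CPM in SUM159, a change of -0.62 (-0.73 to -0.52). HERC6 had 19.6 and 64.2 CPM in MDA-MB-231, a change of 1.71 (1.55 to 1.87), and 28.5 and 13.3 CPM in SUM159, a change of -1.10 (-1.32 to -0.89). HERC5, its neighbour, had 44 and 92.7 CPM in MDA-MB-231, with a change of 1.07 (0.96 to 1.19). In SUM159 it stood at only 6.29 and 3.81 CPM, and its change was -0.72 (-1.16 to -0.29).
USP18 was the only gene of the 49 at least 2-fold higher in both lines, with 37 and 96 counts in MDA-MB-231 and 15 and 65 counts in SUM159. Its changes were 1.64 (1.09 to 2.24) and 1.79 (0.97 to 2.72). USP18 has a near-identical copy, USP41, so its counts are uncertain.

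Of the 5 IFI genes, IFI44 and IFI44L passed 2-fold. IFI44, a cytosolic antiviral protein gene, stood at 19.4 and 86.2 CPM in MDA-MB-231, a change of 2.15 (2.0 to 2.31), and at 22.5 and 20.2 CPM in SUM159, where the interval of its change of -0.16 spanned 0 (-0.36 to 0.05). Its neighbour IFI44L had 1.72 and 5.0 CPM in MDA-MB-231 and 13.4 and 3.10 CPM in SUM159, with changes of 1.54 (0.99 to 2.12) and -2.11 (-2.54 to -1.71). IFI6, IFI27 and IFI35 stayed within 2-fold in both lines, between -0.13 and 0.53 in MDA-MB-231 and between -0.37 and -0.27 in SUM159. Scaling by total counts turned the sign of IFI27 in MDA-MB-231 and of IFI6, IFI35 and IFI44 in SUM159, and DESeq2 size factors that of IFI35 in MDA-MB-231.

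RSAD2, which encodes the antiviral radical SAM enzyme viperin (chr2:6865557-6898239), had the highest fold change of the module in MDA-MB-231. It had 3 counts in the DMSO library and 83 in the MBZ library, a ratio of 33.4 with a counting interval of 11 to 165. In SUM159 it had 93 and 56 counts, a change of -1.05 (-1.55 to -0.55). Its neighbour CMPK2, a mitochondrial nucleotide kinase gene, had 8 and 11 counts in MDA-MB-231 and 3 and 1 counts in SUM159, too few to compare.

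ISG20, an exonuclease gene, stood at 10.2 and 50.9 CPM in MDA-MB-231, a change of 2.32 (2.11 to 2.54), and at 13.4 and 11.5 CPM in SUM159, a change of -0.22 (-0.49 to 0.05). DDX60, a helicase gene, had 526 and 1879 counts in MDA-MB-231, a change of 2.11 (1.97 to 2.25), and 559 and 391 counts in SUM159, a change of -0.83 (-1.02 to -0.64). SAMD9 and SAMD9L, neighbouring genes of growth-restricting antiviral factors, passed 2-fold in MDA-MB-231 with 1.37 (1.21 to 1.53) and 1.01 (0.81 to 1.22), of which SAMD9L fell short of it with DESeq2 size factors (0.97). In SUM159 they had -0.27 (-0.47 to -0.07) and -0.51 (-0.84 to -0.18). Scaling by total counts turned the sign of SAMD9 and ISG20 in SUM159. The whole effector group runs from RSAD2 and these genes to EPSTI1 below, and of its 11 genes compared in each line, 5 were at least 2-fold higher and 0 lower in MDA-MB-231, against 9.05% and 5.14% of all genes. In SUM159, 0 of the 11 were higher and 4 lower, against 12.7% and 10.7%. With scaling by total counts 6 were higher in MDA-MB-231, and only TRIM22 and EPSTI1, 2 of the 11, were lower in SUM159.

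TRIM22, PARP14, EPSTI1 and GBP2 passed 2-fold in SUM159 alone, downward, except that with scaling by total counts PARP14 no longer did and EPSTI1 also passed upward in MDA-MB-231. TRIM22, a ubiquitin ligase gene, had 46 and 35 counts in MDA-MB-231 and 244 and 59 counts in SUM159, where its change of -2.36 (-2.80 to -1.95) was the lowest of the module. PARP14, an ADP-ribosyltransferase gene, stood at 32.1 and 53.1 CPM in MDA-MB-231, a change of 0.72 (0.58 to 0.86), and at 115 and 55.1 CPM in SUM159, a change of -1.06 (-1.17 to -0.96). EPSTI1 had 58 and 85 counts in MDA-MB-231 and 91 and 34 counts in SUM159, with changes of 0.82 (0.33 to 1.33) and -1.73 (-2.35 to -1.15). GBP2, a guanylate-binding protein gene that responds strongly to interferon gamma, had 46.9 and 36.7 CPM in MDA-MB-231, a change of -0.35 (-0.49 to -0.21). In SUM159 it had 179 and 45.8 CPM, a change of -1.97 (-2.07 to -1.86). BST2, the gene of the virus-tethering protein tetherin, PARP9, XAF1 and GBP1 passed 2-fold in neither line, with changes from -0.46 to 0.60 in MDA-MB-231 and from -0.87 to 0.16 in SUM159.

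CCL5 and CXCL10, chemokine genes that both interferon and NF-kB signalling can raise, and their relative CXCL11 differed widely between the lines. CCL5 (chr17:35871491-35880793) had 11 and 42 counts in MDA-MB-231 and 2035 and 884 counts in SUM159, with changes of 2.19 (1.22 to 3.31) and -1.52 (-1.63 to -1.40). CXCL10 had 0 and 1 counts in MDA-MB-231 and 57 and 49 counts in SUM159, a change of -0.53 (-1.12 to 0.04). CXCL11 had 0 and 5 counts in MDA-MB-231. With the floor of 3 counts in place of the 0 its ratio is 2.01, which leaves out the counting error of the 5. In SUM159 it had 68 and 73 counts, a change of -0.21 (-0.71 to 0.28) whose sign turned with total counts. All 3 chemokines were far higher in SUM159 than in MDA-MB-231 in either treatment.

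**Figure D2:**
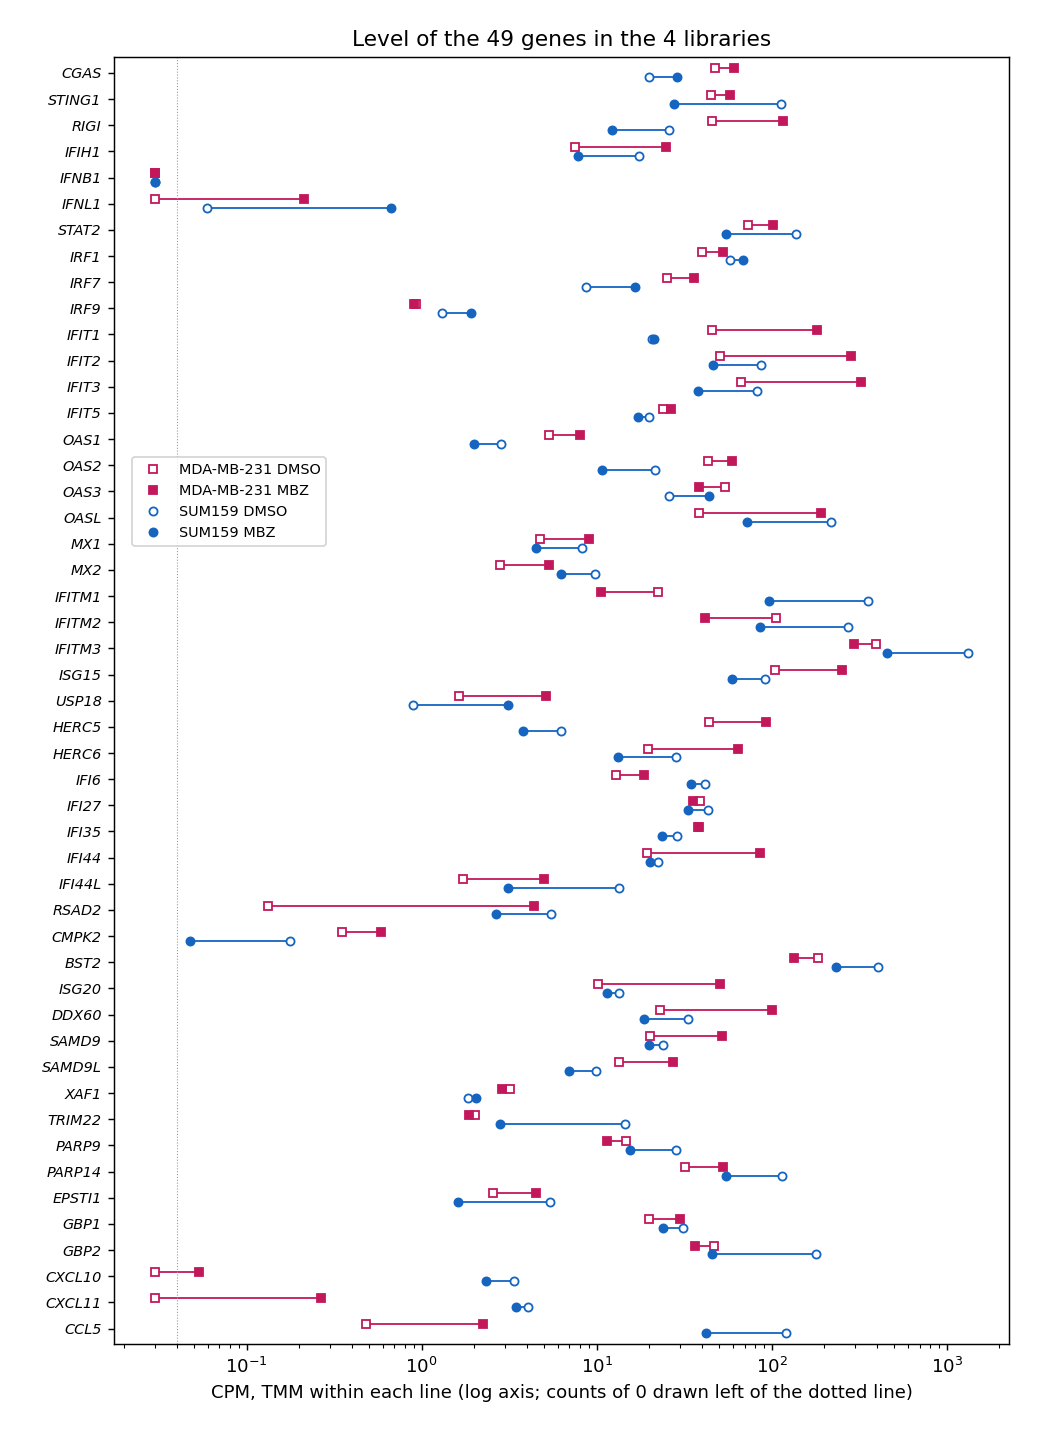
Level of each of the 49 genes (CPM on a log axis, scaled by TMM within each line) in the DMSO (open) and MBZ (filled) library of MDA-MB-231 (red squares) and SUM159 (blue circles), with counts of 0 drawn left of the dotted line. CCL5 sits at 0.484 and 2.23 CPM in MDA-MB-231 against 121 and 42.1 CPM in SUM159, and IFIT2 runs from 50.7 to 284 CPM along the red line while the blue line runs from 86.9 back to 46.3 CPM.

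The 2 lines were then set side by side for the 44 genes compared in both. RIGI, IFIH1, IFIT3, OASL, HERC6, IFI44L, RSAD2 and CCL5 were at least 2-fold higher in MDA-MB-231 and at least 2-fold lower in SUM159. These 8 are 18.2% of the 44, against 0.874% of the 13733 genes compared in both lines. With scaling by total counts the count became 4 (OASL, IFI44L and CCL5 of the 8, and EPSTI1), against 0.867% of all genes. USP18 was higher in both (1 of 44, against 2.48% of all genes), and IFITM1 and IFITM2 were lower in both (2 of 44, against 1.09%). Without regard to size, 28 of the 44 lay above 0 in MDA-MB-231 and below 0 in SUM159, against 22.3% of all genes, and 24 did so with scaling by total counts. For 23 of the 44 the whole counting intervals lay on these sides of 0, against 9.4% of all genes. The SUM159 change was lower than the MDA-MB-231 change for 38 of the 44 (86.4%), against 51.9% of all genes.
The median difference, SUM159 minus MDA-MB-231, was -1.63 on the log2 scale over the 44 genes and -0.035 over all genes. OASL differed by -3.90 (-4.04 to -3.76), IFIT2 by -3.39 (-3.54 to -3.24) and IFIT3 by -3.39 (-3.54 to -3.24), where these intervals again cover counting error. Pearson's r between the changes in the lines was 0.022 across the 44 genes, with Spearman's rho at -0.0079, and across all 13733 genes these were 0.19 and 0.17. Genes of a line share its libraries and are not independent replicates, so these are descriptions. The difference between the lines could not be tested, since 1 library per line and treatment leaves no residual degree of freedom for an interaction.

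A change common to the lines was sought with the quasi-likelihood test of edgeR over the 4 libraries, with the line as a term, so the lines stood in for replicates. Of all 16100 genes tested, 1 was higher (0.00621%) and 0 were lower (0.0%) at an adjusted p under 0.05, and 1150 genes had an unadjusted p under 0.05. Of the 46 module genes tested, 0 passed, and 4 had an unadjusted p under 0.05. The 2 IFITM genes at least 2-fold lower in both lines came nearest. IFITM2 had a shared log2 fold change of -1.47 ± 0.295 (SE; edgeR, adjusted p = 0.441) and IFITM1 one of -1.45 ± 0.329 (SE; edgeR, adjusted p = 0.458). By DESeq2's Wald test both passed, with adjusted p = 0.0067 for IFITM2 and 0.0298 for IFITM1. They also passed in the edgeR test when every gene with at least 1 count was kept, with adjusted p = 0.00554 and 0.00746. The share of all genes that passed in these 2 fits is not given, so the 2 genes cannot be set against it.

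After 72 h with the vehicle alone, the lines carried the module at different levels. In the DMSO libraries, 18 of 46 genes (39.1%) were at least 2-fold higher in SUM159 than in MDA-MB-231, against 22.0% of all 15559 genes, and 5 (10.9%) were at least 2-fold lower, against 21.2%. The higher genes were STING1, IFIH1, OASL, MX2, IFITM1, IFITM2, IFITM3, IFI6, IFI44L, RSAD2, BST2, TRIM22, PARP14, EPSTI1, GBP2, CXCL10, CXCL11 and CCL5. CCL5 was higher by a log2 ratio of 7.98 (7.16 to 9.01), IFITM1 by 4.02 (3.89 to 4.15) and IFI44L by 3.0 (2.51 to 3.54). CXCL10 and CXCL11 were 26.4-fold and 31.4-fold higher with the floor of 3 counts in place of the 0 counts of MDA-MB-231, without counting error. The lower genes were CGAS, at a log2 ratio of -1.21 (-1.39 to -1.03), IRF7 (-1.48), IFIT1 (-1.11), OAS3 (-1.02) and HERC5, which was lowest at -2.76 (-3.07 to -2.47). The DMSO libraries also enter the comparisons with MBZ, so these ratios and the changes within the lines are not independent.
The module took 0.164% of all counts in the DMSO library and 0.333% in the MBZ library of MDA-MB-231, and 0.370% and 0.20% in those of SUM159. IFITM3 alone gave 22368 of the 69192 module counts in the DMSO library of SUM159, so the order of these shares rests in part on 1 gene.

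Levels of different genes were compared per kilobase of annotated exon (RPKM). In the DMSO library of MDA-MB-231, BST2 (168 RPKM), IFITM3 (139), ISG15 (121) and IFITM2 (66.3) led the module. In the DMSO library of SUM159, IFITM3 (467 RPKM), BST2 (368), IFITM1 (213), IFITM2 (170), ISG15 (105) and CCL5 (88.5) led. With MBZ, ISG15 (291 RPKM) was the most abundant in MDA-MB-231, followed by BST2 (122), IFITM3 (103), IFIT2 (65.6) and IFIT3 (63.7). In SUM159 with MBZ, BST2 (211 RPKM) and IFITM3 (160) led, and ISG15 stood at 68.4 RPKM. The exon length joins all annotated transcripts of a gene, so a gene with long rare exons, such as MX1, is put low by this scale.

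Further genes of the pathway were taken from 3 lists that hold receptors and signalling genes, genes that control or sense nucleic acids, and other interferon-induced genes. Together they held 61 genes of the table beside the 49. In MDA-MB-231, 8 of 55 compared (14.5%) were at least 2-fold higher and 0 lower, against 9.05% and 5.14% of all genes. In SUM159, 3 of 57 (5.26%) were higher and 11 (19.3%) lower, against 12.7% and 10.7% of all genes. Among the 22 receptors and signalling genes, IRF5, with a change of 1.31 (0.73 to 1.92), and DHX58, the gene of the RIG-I relative LGP2, were higher in MDA-MB-231. DHX58 had 211 and 516 counts there, a change of 1.56 (1.33 to 1.80), and 242 and 168 counts in SUM159, a change of -0.84 (-1.14 to -0.55). In SUM159, IFNGR1, JAK1, JAK2, TLR3 and SOCS1 were lower, JAK2 at -1.45 (-1.72 to -1.18) and the interferon gamma receptor gene IFNGR1 at -1.28 (-1.39 to -1.17). The signalling kinase gene JAK1 had -1.04, SOCS1, whose product damps the pathway, -1.11, and TLR3, an endosomal RNA sensor gene, -1.0.
Of the 14 nucleic acid genes, AIM2, a DNA sensor gene, and ZC3HAV1, the gene of the antiviral protein ZAP, were higher in MDA-MB-231, at 1.62 (0.94 to 2.36) and 1.43 (1.35 to 1.51). TREX1, which encodes a DNase that limits cGAS, was listed at 0 in all 4 libraries, and all of its exon bases (100%) overlap ATRIP. Of the 26 other interferon-induced genes in the table, GBP3 (1.21 and 1.07) and LAMP3 (1.19 and 1.33) were at least 2-fold higher in both lines, although the SUM159 interval of LAMP3 spanned 0. GBP5 was higher in SUM159 (1.32), and GBP4 and RTP4 (1.04 and -1.40) were higher in MDA-MB-231 and lower in SUM159. GBP4 had 109 and 237 counts in MDA-MB-231 and 538 and 253 counts in SUM159, with changes of 1.39 (1.06 to 1.73) and -1.40 (-1.63 to -1.19). TRIM5 (-1.38), LY6E (-1.19) and LGALS3BP (-1.09) were lower in SUM159 and within 2-fold in MDA-MB-231.

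**Figure D3:**
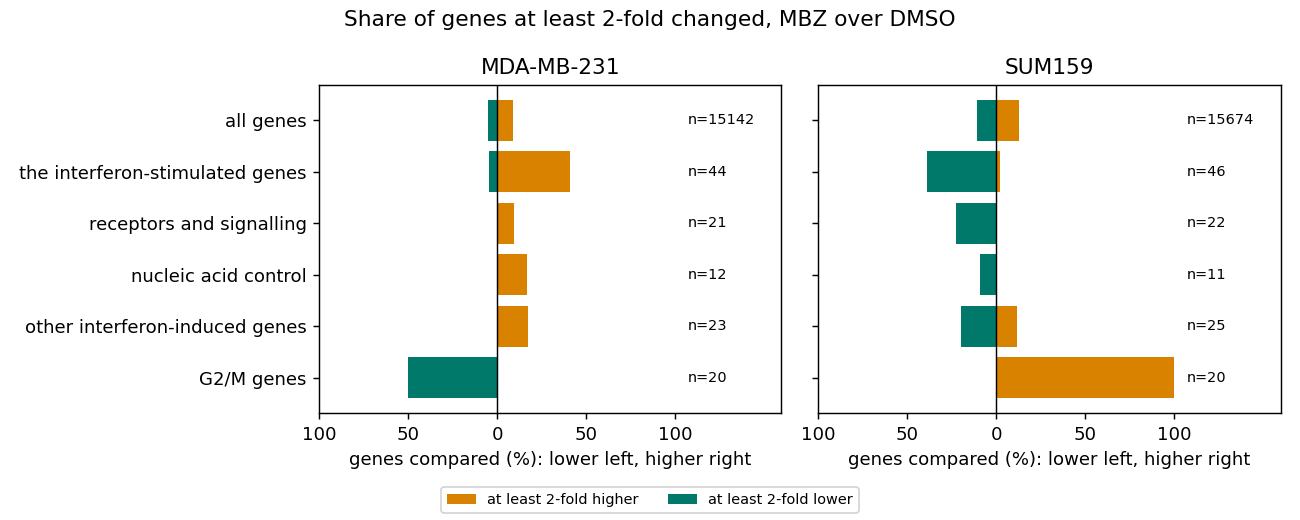
Share of the genes compared that were at least 2-fold higher (orange, to the right) or lower (green, to the left) with MBZ in each line, for all genes, the interferon-stimulated and cGAS-STING genes, 3 further lists of the pathway and 20 G2/M genes; n is the number compared. The module reaches 40.9% to the right in MDA-MB-231 and 39.1% to the left in SUM159, while the G2/M genes run the opposite way in each line, 50% lower and 100% higher.

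Other values differed between the treatments too, and the G2/M genes ran opposite to the module in each line. Of 20 genes of the G2 and M phases, 10 were at least 2-fold lower and 0 higher in the MBZ library of MDA-MB-231, with a median of -0.98. All 20 were at least 2-fold higher in that of SUM159, with a median of 2.42. Over all genes compared, 5.14% were lower and 9.05% higher in MDA-MB-231, and 12.7% were higher and 10.7% lower in SUM159. The summed level of the 20 genes was 4611 and 2468 CPM in MDA-MB-231 and 428 and 2157 CPM in SUM159, lowest in the DMSO library of SUM159. The part of this in the module's changes was not tested. Of 8 leukocyte markers, the summed level was 3.26 and 4.47 CPM in MDA-MB-231 and 41.3 and 8.63 CPM in SUM159. In MDA-MB-231, PTPRC (8 and 23 counts) was at least 2-fold higher with MBZ, 1 of 3 markers with enough counts. In SUM159 both markers with enough counts, PTPRC (216 and 60 counts) and CD14 (477 and 110 counts), were at least 2-fold lower with MBZ, beside TRIM22, GBP2 and CCL5. The B cell marker MS4A1 had 0 counts in all libraries, the T cell marker CD3E had 0 or 1, and NKG7 0 to 4, and the part of PTPRC and CD14 in the result was not tested.

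The promoter motif was then read beside the changes. Of the 23 genes with an ISRE core in the window that were compared in MDA-MB-231, 11 were at least 2-fold higher and 1, IFITM1, lower, with a median of 0.93. Of the 9 compared without one, 3 (RIGI, HERC6 and SAMD9L) were higher, with a median of 0.48. In SUM159, 8 of 24 genes with the core and 3 of 10 without it were at least 2-fold lower, with medians of -0.76 and -0.40. IFITM1 and IFITM3, at least 2-fold lower in SUM159, held 2 matches each, as did ISG15 and IFIT1, which were within 2-fold there. The same number of core matches thus stood before genes with different calls. The 12 genes with no window given, among them STING1, IFIT2, OASL and CCL5, enter neither group. In MDA-MB-231, 4 of them were at least 2-fold higher and 1 lower, with a median of 0.49, and in SUM159 1 was higher and 7 lower, with a median of -1.26. Over all genes, 9.05% were higher in MDA-MB-231 and 10.7% lower in SUM159.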

How the data were processed

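RNA-seq counts per gene from 4 libraries were used, 1 for each line and treatment, mapped to groups by their labels. The authors used STAR 2.5 with GRCh38, HTSeq 0.6.1 in union mode and edgeR 3.16.5, and deposited the raw counts. The annotation release and strand setting are not given in the sources used here, so reads of overlapping and antisense genes cannot be told apart. All columns of per-sample values were used.

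Log2 fold changes came from edgeR 4.0.16 (R 4.3.3) as log2 CPM differences with TMM over the 2 libraries compared and a prior count of 0.125. A gene was compared from a mean of 10 counts and called at 2-fold. Intervals are 95% Clopper-Pearson (scipy 1.17.1) and cover counting error only, since without molecular identifiers PCR copies are counted as separate reads. Differences between lines carry normal intervals from the 4 counts. The shared test was the quasi-likelihood test of edgeR, adjusted over all genes by Benjamini-Hochberg, with DESeq2 1.42.0 as an alternative, and its p-values measure the spread between lines, not cultures. Its scripts were tested on simulated data. Symbols were matched by Ensembl identifier for 58207 of 58735 genes. Coordinates and exon overlaps are those of GENCODE 44 on GRCh38, promoters those of RefSeq GRCh38.p14.

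The 49 genes and the further lists were chosen with earlier results of these data known. All 49 may be named. Of the further lists, genes at least 2-fold changed in a line are named, with IRF3, TBK1, MAVS, IFNAR1 and IFNAR2 whatever their values. A few genes that this rule takes are not reported here. TREX1 and the cell type markers were named after their values were seen. Alternatives covered scaling, low counts, prior count, fold, exon overlap and the exact test of edgeR at a set biological coefficient of variation (BCV).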

Additional observations from a re-analysis of the deposited data

Results flagged for a closer look

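For 24 of the 44 genes compared in both lines, the counting intervals of the change with MBZ lay wholly on opposite sides of 0 in MDA-MB-231 and SUM159, against 2748 of all 13733 genes (20%). The difference between the lines was not tested, since each line and treatment has 1 library. In 23 of the 24 the SUM159 change was the lower, as it was in 1291 of the 2748. That direction was shown by 23 of the 44 genes, against 9.4% of all 13733. Of the 24, 22 kept opposite signs under all scalings tried, IFI6 and SAMD9 being the exceptions. The difference in log2 fold change, SUM159 minus MDA-MB-231, was -6.05 for RSAD2, which rests on 3 counts in 1 library. It was -3.90 for OASL, -3.71 for CCL5, -3.65 for IFI44L, -3.39 for IFIT2 and -3.39 for IFIT3. It was -2.94 for DDX60, -2.89 for IFIH1, -2.81 for HERC6, -2.55 for EPSTI1, -2.45 for RIGI and -2.40 for STING1. The values for the antiviral and signalling genes between were -1.89 for ISG15, -1.81 for STAT2, -1.81 for MX1, -1.80 for HERC5, -1.79 for PARP14, -1.64 for SAMD9, -1.57 for MX2, -1.52 for SAMD9L and -1.47 for OAS2. GBP1 differed by -0.97 and IFI6 by -0.81. OAS3 ran the other way, with a difference of 1.25.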

How the results depend on the processing

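Scaling by total counts left 1 gene lower in MDA-MB-231 (2 as reported), and in SUM159 gave 3 higher (1 as reported) and 11 lower (18 as reported), with medians of 0.93 and -0.46. In SUM159 the single higher gene became 2 with every gene of at least 1 count, 0 at a mean of at least 100 counts and 3 at a fold change of 1.5, which also made 10 genes lower in SUM159 than MDA-MB-231 under DMSO (5 as reported). Without genes that overlap another in exons, 0 were lower in MDA-MB-231, 11 lower in SUM159 and 11 higher in SUM159 under DMSO, with a median of 1.01 in MDA-MB-231, over fewer genes. By the exact test of edgeR at a set BCV of 0.2 and an adjusted p under 0.005, MDA-MB-231 had 10 genes higher and 0 lower, and SUM159 had 0 higher and 8 lower. At a BCV of 0.4 all 4 counts were 0, and these tests compare 2 libraries, not the conditions. Shares of all genes under these alternative settings are not given, so the counts cannot be set against them. The shared test called 2 genes with every gene of at least 1 count and 2 by DESeq2, IFITM1 and IFITM2 in each, against 0 as reported and 0 with RLE normalization, where 5 had an unadjusted p under 0.05. The cause of these shifts was not tested. In all, 58 other alternative values stayed within 1.5 times the reported count or, for medians, within the typical counting interval of a gene, and no called gene turned in sign under any scaling tried. The median difference between lines ran from -1.64 to -1.59. Pairing by replicate was not possible because each group has only replicate 1, so no replicate block could be fitted and no replicate left out. The shared test pairs MBZ with DMSO within lines by its line term. The interferon genes and CMPK2 in both lines, and CXCL10 and CXCL11 in MDA-MB-231, had too few counts to compare.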
